A study of Mus musculus with 8 samples.

Results

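The genes described here are 30 members of the path that takes glucose into a cell and lactate out of it. They were chosen by name: the enzymes of glycolysis with their isoforms, glucose and lactate transporters, lactate dehydrogenases, pyruvate dehydrogenase kinases, the regulatory enzymes Pfkfb3 and Bpgm, and the hypoxia factor Hif1a. All 30 had a probe among the 22911 genes that could be named on the array, with 53 probes between them. For 15 members there was 1 probe, and the other 15 had several, up to 6. RNA came from 8 mouse samples, 1 array each. CD4+ T cells were taken from the brains of wild type (WT) mice 14 days after an ischemic stroke and from the spleens of untreated mice, and each source was split into regulatory T cells (Treg) and the remaining CD4+ cells (nonTreg). Whole tissue came from a brain slice on the side of the stroke, also at day 14, in 4 groups: WT sham, DEREG sham, WT ischemia and DEREG ischemia. DEREG mice carry a diphtheria toxin receptor under control of Foxp3, so that toxin can remove their Treg; the labels used here do not say whether toxin was given, how Treg were separated, or how many animals gave each sample.

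Glycolysis splits glucose into pyruvate. Slc2a1 and Slc2a3 carry glucose across the membrane, hexokinases trap it as glucose-6-phosphate, and phosphofructokinase makes the committed step. Lactate dehydrogenase turns pyruvate into lactate, which leaves through the monocarboxylate transporters Slc16a1 and Slc16a3. Pyruvate dehydrogenase kinases inhibit pyruvate dehydrogenase, the mitochondrial complex that uses pyruvate. Many of these enzymes come in isoforms typical of a tissue: Slc2a3, Eno2 and Aldoc of the nervous system (Slc2a3 and Eno2 of neurons, Aldoc largely of astrocytes), Eno3 and Pgam2 of muscle, Hk3 of myeloid cells, Pklr of liver and red cells. Activated T cells are known for raising glycolysis, and HIF1A, the oxygen-regulated subunit of hypoxia-inducible factor, activates many of these genes through short DNA motifs.

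The promoters of some members, picked with the results known, are shown here. Hk2, Hk3, Slc16a3 and Hif1a were higher both in brain T cells and in brain tissue after stroke. Ldha was higher in brain Treg but barely differed in WT tissue after stroke, and Eno2 was lower in the stroke tissue. Each line holds the 250 bases before the annotated start, 5′ to 3′ on the gene's strand, from RefSeq on build GRCm38.p6, with the core letters of the hypoxia motif, ACGTG or GCGTG read on either strand, in capitals.
Hk2, chr6:82774455-82774704, minus strand: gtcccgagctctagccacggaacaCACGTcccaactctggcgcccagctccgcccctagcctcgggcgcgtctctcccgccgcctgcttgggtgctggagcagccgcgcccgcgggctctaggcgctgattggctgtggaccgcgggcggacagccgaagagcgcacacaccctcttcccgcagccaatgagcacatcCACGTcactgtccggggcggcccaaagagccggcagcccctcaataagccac
Hk3, chr13:55021386-55021635, minus strand: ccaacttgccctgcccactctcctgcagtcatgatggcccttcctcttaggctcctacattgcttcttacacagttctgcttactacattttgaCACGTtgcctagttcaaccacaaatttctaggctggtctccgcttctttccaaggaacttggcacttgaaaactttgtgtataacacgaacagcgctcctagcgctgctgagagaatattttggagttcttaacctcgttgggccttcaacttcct
Slc16a3, chr11:120948817-120949066, plus strand: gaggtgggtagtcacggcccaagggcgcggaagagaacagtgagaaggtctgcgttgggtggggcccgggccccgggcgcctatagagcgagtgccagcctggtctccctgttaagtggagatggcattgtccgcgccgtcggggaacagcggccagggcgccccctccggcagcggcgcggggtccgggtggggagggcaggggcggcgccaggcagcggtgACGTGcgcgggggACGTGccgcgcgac
Hif1a, chr12:73907617-73907866, plus strand: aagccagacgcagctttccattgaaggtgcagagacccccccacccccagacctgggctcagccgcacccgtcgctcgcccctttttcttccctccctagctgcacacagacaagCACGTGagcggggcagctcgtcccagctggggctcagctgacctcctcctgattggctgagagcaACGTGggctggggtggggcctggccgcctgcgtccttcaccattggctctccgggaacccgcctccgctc
Ldha, chr7:46845554-46845803, plus strand: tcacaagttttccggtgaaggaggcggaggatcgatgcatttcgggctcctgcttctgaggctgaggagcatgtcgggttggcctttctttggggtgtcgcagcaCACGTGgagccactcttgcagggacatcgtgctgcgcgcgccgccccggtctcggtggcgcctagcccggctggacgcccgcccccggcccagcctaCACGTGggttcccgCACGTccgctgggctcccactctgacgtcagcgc
Eno2, chr6:124769674-124769923, minus strand: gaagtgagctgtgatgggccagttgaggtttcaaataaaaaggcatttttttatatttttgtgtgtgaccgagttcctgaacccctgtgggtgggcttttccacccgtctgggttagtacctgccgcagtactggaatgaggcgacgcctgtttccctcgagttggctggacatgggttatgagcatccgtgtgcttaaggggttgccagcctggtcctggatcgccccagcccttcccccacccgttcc
These stretches hold 2 matches for Hk2, 1 for Hk3, 2 for Slc16a3, 3 for Hif1a, 5 for Ldha and none for Eno2; CACGTG holds the motif on each strand and was counted on both. In the full windows, which add 50 bases after the start, at least 1 match was found for 23 of the 29 members that had a window (79.3%), against 46.7% of all genes with a window and 61.7% of the genes compared between WT ischemia and WT sham. In these full windows Tpi1 and Pgam2, both higher in brain T cells, held no match. Pfkm and Pfkp, both lower after stroke, held up to 3 and 4. Slc2a3 was not matched to a window, and some members have several windows, of which the first is shown for Ldha. The match is of letters only; binding was not measured.

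The share of probes well above background ran from 47.6% to 51.9% on T cell arrays and from 62.0% to 65.1% on tissue arrays. Values are given as scaled signals: the processed intensity of a probe divided by the 75th percentile of its array (for T cells, of the probes well above background on all 4 arrays). A scaled signal can be compared for 1 probe between arrays of a set, not between probes. Differences are on the log2 scale of scaled signals unless written as folds, and a gene was counted when it differed at least 2-fold. With 1 array in each group there was no replicate and no test between groups, so every value describes single libraries, and precision is limited by the number of arrays. In all these samples, fewer cells of a type and less RNA per cell cannot be told apart. Foxp3, which defines Treg, had a scaled signal of 8.60 in spleen Treg, while in spleen nonTreg it was 0.0135 and not well above background. It was 4.25 in brain Treg and 0.803 in brain nonTreg, so the library labelled brain nonTreg carried measurable Foxp3. Of the 30 members, 27 were well above background on all 4 T cell arrays and 29 on all 4 tissue arrays. Pklr was not well above background on any of the 8 arrays and enters no comparison.

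The first comparison set Treg of the ischemic brain against Treg of the untreated spleen. Glycolytic transcripts were higher in brain Treg along much of the path, most of all, among those measured on both arrays, Hk2 (9.35-fold), Tpi1 (4.46-fold), Hif1a (4.26-fold), Hk3 (4.15-fold) and Slc16a3 (4.09-fold). Brain Treg were at or past 2-fold higher for 13 of 29 members and lower for 2, which is 44.8% and 6.90% of the members. Over all 13779 genes compared, 17.2% were higher and 11.7% lower by that measure. The median difference was 0.93 for the members and 0.03 for all genes, and 22 of the 29 lay above 0. The lower members were Pdk1 and Eno3.

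Hexokinases trap glucose in the cell, and their isoforms differed in direction. Hk2, the inducible form, had scaled signals of 0.277 and 0.0983 in Treg and nonTreg of the brain, against 0.0296 in spleen Treg and 0.0121, which is not well above background, in spleen nonTreg. Both brain libraries lay above both spleen libraries, and within each tissue Treg lay above nonTreg. Hk3 followed the same order, with 0.426 and 0.198 in Treg and nonTreg of the brain and 0.103 and 0.0822 in those of the spleen. Hk1, the constitutive form, was slightly lower in the brain libraries, at 3.69 and 3.54 in Treg and nonTreg against 4.59 and 4.52 in the spleen. As a result Hk2 moved 11.6-fold relative to Hk1 between spleen and brain Treg.

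The 8 enzymes from glucose-6-phosphate isomerase to pyruvate kinase that occur in most cells (Gpi1, Aldoa, Tpi1, Gapdh, Pgk1, Pgam1, Eno1 and Pkm) were all above 0 in brain Treg, from 0.27 to 2.16 with a median of 1.12, and 6 of them passed 2-fold. Tpi1, triosephosphate isomerase, stood at 5.87 and 3.33 in brain Treg and nonTreg, against 1.32 and 1.15 in the spleen. Its 3 probes gave differences of 2.16 to 2.60 between brain and spleen Treg. Pgam1, phosphoglycerate mutase, was 2.88-fold higher in brain Treg, and Pgk1, a kinase that makes ATP, was 2.55-fold higher. Gapdh, often used as a reference gene, was not level between these libraries: its scaled signal was 56.2 in brain Treg and 24.8 in spleen Treg, and its 6 probes gave differences of 1.18 to 2.14. Pkm and Aldoa were 2.08-fold and 2.03-fold higher, close to the 2-fold line, while Gpi1 (1.20-fold) and Eno1 (1.47-fold) stayed below it. Under quantile normalization Pkm no longer reached 2-fold.

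At the exit of the path, Ldha and the lactate exporter Slc16a3 were higher in brain Treg. Slc16a3, which encodes MCT4, the exporter of strongly glycolytic cells, had scaled signals of 0.150 in spleen nonTreg, 0.422 in spleen Treg, 0.609 in brain nonTreg and 1.73 in brain Treg. The lowest brain value was above the highest spleen value, and Treg exceeded nonTreg in both tissues. Ldha, the form that favours lactate, was 57.0 in brain Treg and 28.3 in spleen Treg, a difference of 2.01-fold. Ldhb, which favours pyruvate, was 2.83 and 3.29, and its probes differed in sign (-0.22 to 0.31). Slc16a1, which encodes the widely used transporter MCT1, was 1.90-fold higher in brain Treg and 1.11-fold higher in brain nonTreg.

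The pyruvate dehydrogenase kinases went opposite ways. Pdk1 had scaled signals of 4.98 in spleen nonTreg, 2.48 in spleen Treg, 1.02 in brain nonTreg and 0.906 in brain Treg. Both brain libraries were thus below both spleen libraries, by 2.73-fold in Treg and 4.86-fold in nonTreg, and its 4 probes gave -2.25 to -1.24 in Treg and -3.48 to -2.09 in nonTreg. Pdk3 was 2.53-fold higher in brain Treg and 2.14-fold higher in brain nonTreg. Both Pdk3 counts fell under 2-fold with normexp background correction. Pdk1 is itself a known HIF target. Hif1a stood at 5.98 in brain Treg and 4.83 in brain nonTreg against 1.41 and 1.09 in the spleen, 4.26-fold and 4.42-fold higher. HIF1A protein was not measured, and a link between Hif1a and Pdk1 was not tested.

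Slc2a1, the basal glucose transporter, was 1.95-fold higher in brain Treg and 2.34-fold higher in brain nonTreg. Slc2a3, the high-affinity transporter, was 0.569 in spleen nonTreg, 1.30 in spleen Treg, 1.02 in brain nonTreg and 1.18 in brain Treg. Its spleen nonTreg library was the low one, and its difference of -0.13 between brain and spleen Treg became 0.02 with the median over its probes. None of the phosphofructokinase genes passed 2-fold in either T cell type: Pfkp was 1.76-fold and Pfkl 1.27-fold higher in brain Treg, and Pfkm 1.49-fold lower. Pfkfb3, whose product makes the activator of phosphofructokinase, was 1.46-fold higher, and Bpgm, the mutase that diverts a glycolytic intermediate to bisphosphoglycerate, 1.12-fold higher.

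Isoforms known from other tissues were also measured in the T cell libraries. Pgam2, the muscle mutase, had scaled signals of 0.189 in brain nonTreg, 0.0592 in brain Treg and 0.0155 in spleen nonTreg, and in spleen Treg it was not well above background. It was 12.2-fold higher in brain than in spleen nonTreg and at least 5.18-fold higher in brain than in spleen Treg. The spleen nonTreg signal lay close to the lowest signal well above background on its array, so the size of the 12.2-fold difference is uncertain. Normexp background correction brought the Treg value from 2.37 to 0.57. Of 10 skeletal muscle markers, 3 were well above background in each brain library and 2 in each spleen library, and Ckm and Mb were above it in none of them. Eno3, the muscle enolase, was lower in the brain, by 2.23-fold in Treg and 1.73-fold in nonTreg. Aldoc differed by 1.39-fold in both cell types.

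**Figure D1:**
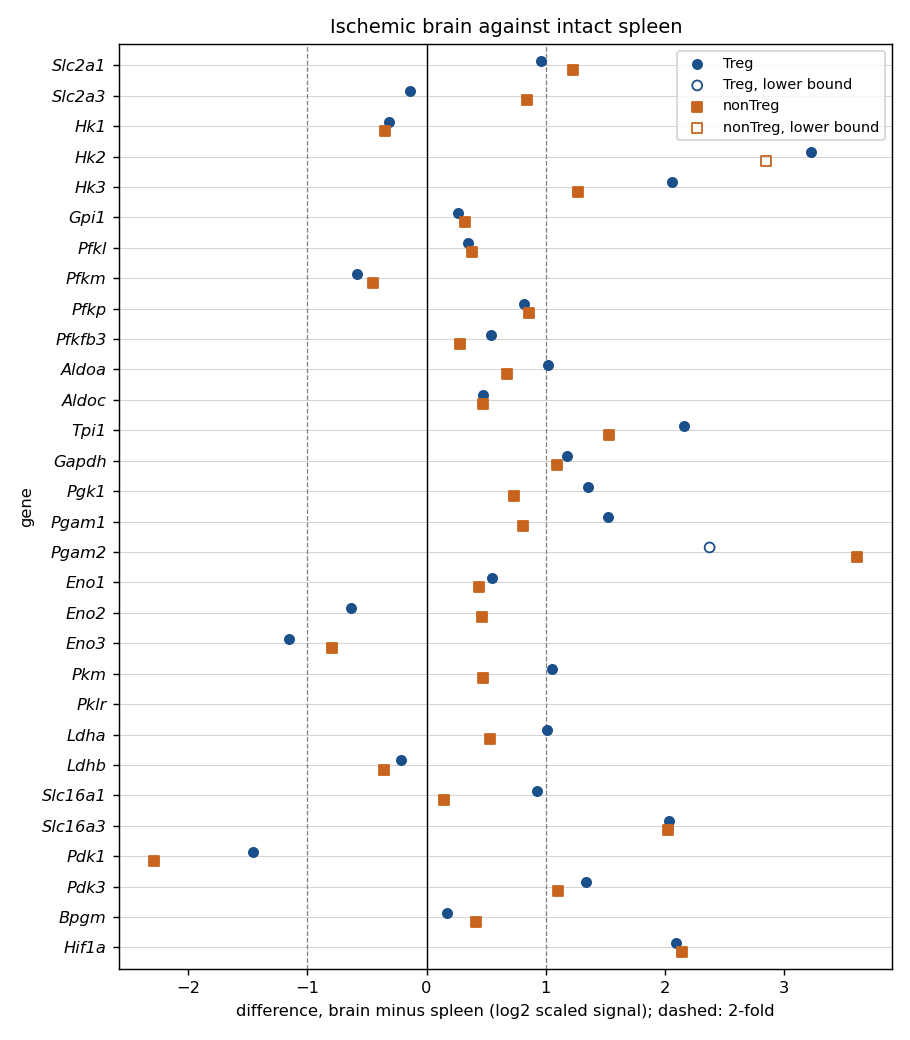
Difference between ischemic brain and untreated spleen for each member (x axis, log2 scaled signal, brain minus spleen), for Treg (blue circles) and nonTreg (orange squares), 1 array per group and so no error bars. Open symbols are lower bounds, dashed lines mark 2-fold, and Pklr has no value; 13 Treg points and 9 nonTreg points lie at or beyond the right dashed line, and Pdk1 lies farthest to the left in both.

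The same comparison in nonTreg cells used none of the Treg arrays. Of 29 members, 9 were at least 2-fold higher in brain nonTreg (31.0%, against 17.8% of all 13404 genes) and 1 at least 2-fold lower (3.45%, against 12.1%). The median was 0.53, against 0.01 for all genes. The higher members were Pgam2, Hk2 (at least 7.20-fold), Hif1a, Slc16a3, Tpi1, Hk3, Slc2a1, Pdk3 and Gapdh, and the lower one was Pdk1. Of the 13 members higher in Treg and the 9 higher in nonTreg, 8 were the same: Gapdh, Hif1a, Hk2, Hk3, Pdk3, Pgam2, Slc16a3 and Tpi1. That is 61.5% of the first and 88.9% of the second, where for all genes compared in both cell types the shares were 78.0% and 75.3%. The sign was the same for 27 of 29 members (93.1%), Slc2a3 and Eno2 being the exceptions, and for 85.1% of all 13010 genes. Normexp background correction took Hk2 (to 0.90), Hk3 and Pdk3 under 2-fold in nonTreg. The 8 shared enzymes of the middle of the path were again all above 0, from 0.32 to 1.53 with a median of 0.70. With the probes used, 2 of them passed 2-fold in nonTreg and 6 in Treg. That contrast depends on the probe: the highest probe of Pkm, Gpi1 and Eno1 gave 1.53, 1.42 and 1.06 in nonTreg. In Treg their highest values were 1.91, 0.88 and 0.90. With the median over probes, 11 members were higher in nonTreg and 13 in Treg.

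Markers of some other cell types moved with the step from spleen to brain. Brain Treg were at least 2-fold above spleen Treg for 10 of 12 microglia genes (median 4.81; 8 of the 12 values are lower bounds), and 9 of 11 in nonTreg (median 3.75). Their summed scaled signal was 59.7 in brain Treg and 32.0 in brain nonTreg, against 28.2 and 27.9 in the spleen libraries. In spleen Treg P2ry12, Tmem119, Cx3cr1, Sall1, Olfml3, Fcrls, Trem2 and P2ry13 were not well above background, whereas all 12 were above it in both brain libraries. Of the macrophage and monocyte genes, 9 of 10 were higher in each T cell type, and all 12 cell division genes differed at least 2-fold in the same direction in Treg (median 4.11) and in nonTreg (median 3.39). Endothelial genes were higher for 6 of 8 in Treg and 8 of 9 in nonTreg, and erythroid genes for 3 of 3 in each. Bounds made up 7 of 10 macrophage values in each cell type, and 7 of 8 and 8 of 9 endothelial values. Other lists were mixed in Treg: 1 of 4 astrocyte genes was higher and 2 lower, and 2 of 8 oligodendrocyte genes were higher and 2 lower. Of 7 neutrophil genes 2 were higher and 1 lower. In nonTreg the astrocyte counts were 1 and 2 of 5, oligodendrocyte 2 and 2 of 8, and neutrophil 2 and 0 of 5. None of 11 T cell genes differed 2-fold in either comparison. Of 12 neuron markers 4 were well above background in each brain library, 3 in spleen Treg and 2 in spleen nonTreg. Of the 4 compared in each cell type, Stmn2 was higher in the brain (by at least 2.57 in Treg and 3.39 in nonTreg) and Snap25 lower (-1.07 and -1.09). The neuron markers Rbfox3, Syt1, Nefl, Nefm, Slc17a7, Gad1, Gad2 and Syn1 were well above background in none of the 4 libraries. The part of microglia, macrophages and dividing cells in the higher glycolytic signals was not tested.

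Within each tissue, Treg and nonTreg differed at few members. In the brain, 3 of 29 members were at least 2-fold higher in Treg (10.3%, against 4.63% of all genes) and 1 was lower (3.45%, against 2.86%). These were Slc16a3 (2.83-fold), Hk2 (2.81-fold) and Hk3 (2.15-fold), with Pgam2 3.20-fold lower. Hk3 went under 2-fold with the median over its probes (0.82) and with normexp background correction (0.90). With the probes used, all 8 shared enzymes of the middle of the path lay above 0, though by 0.04 to 0.82. The sign depended on the probe for Gpi1 (-0.23 to 0.04 over 3 probes) and Gapdh (-0.06 to 0.14 over 6). Microglia genes moved the same way here, with 9 of 12 past 2-fold and a median of 1.30, as did 5 of 10 macrophage genes and 3 of 12 cell division genes; their part was not tested.

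In the spleen, 4 members were at least 2-fold higher in Treg (13.8%, against 5.38% of all genes) and 1 was lower (3.45%, against 3.24%). Eno2 was 3.91-fold higher, Slc16a3 2.81-fold, Slc2a3 2.28-fold and Hk2 at least 2.17-fold, while Pdk1 was 2.01-fold lower. Only the Slc16a3 count held under every alternative; the other 4 went under 2-fold with normexp background correction, Eno2 from 1.97 to 0.64. The 2 comparisons within tissues share no array with each other, but each shares its arrays with the comparisons of brain and spleen.

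**Figure D2:**
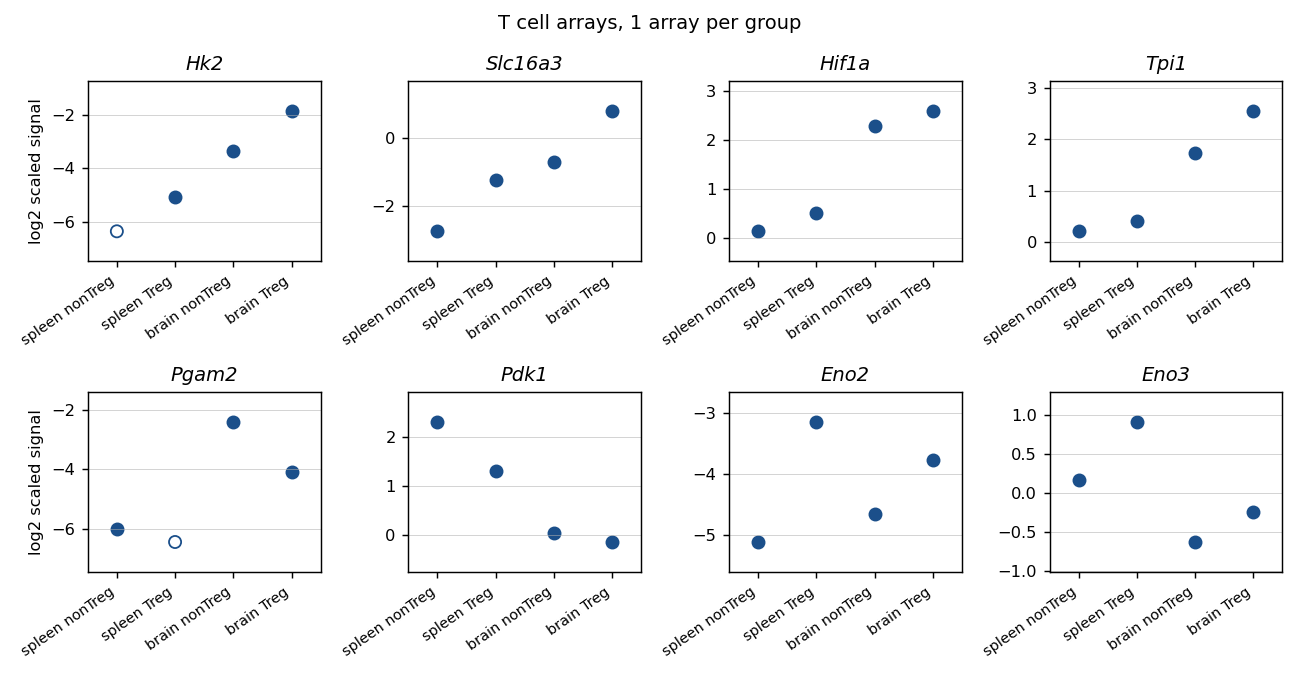
Scaled signal (y axis, log2, each panel with its own range) of 8 members in the 4 T cell libraries, 1 array per point; open circles are not well above background. Hk2, Slc16a3, Hif1a and Tpi1 are ordered spleen nonTreg, spleen Treg, brain nonTreg, brain Treg from low to high, Pdk1 runs the opposite way, and Eno2 is highest in spleen Treg.

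The brain minus spleen difference was also set against itself between the cell types, for the 27 members above background on all 4 T cell arrays. Eno2, the neuronal enolase, was the only member past 2-fold: it was lower in brain than in spleen by 0.63 in Treg and higher by 0.46 in nonTreg, a difference of differences of -1.09. Over all genes, 6.09% passed 2-fold on this measure. Its scaled signals were 0.113 in spleen Treg, 0.0731 in brain Treg, 0.0399 in brain nonTreg and 0.0289 in spleen nonTreg, and with normexp no member passed. Pdk1 (0.83), Hk3 (0.78) and Slc16a1 (0.78) came next on the positive side and Slc2a3 (-0.98) on the negative. Slc16a3 had nearly the same difference in both cell types (2.03 and 2.02), as had Hif1a (2.09 and 2.15).

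In brain tissue the question was how the slice on the stroke side differed from the same slice after sham surgery. Hexokinase 2 and 3, the lactate transporters, Hif1a and Pfkfb3 were higher 14 days after stroke, while Slc2a3, Eno2, Pgam2, Pfkp and Pfkm were lower and the 8 enzymes of the middle of the path lay below 0. In WT mice 6 of 29 members were past 2-fold on the higher side (20.7%) and 5 on the lower (17.2%). Over 16968 genes the shares were 18.8% and 18.4%, so the number of members past 2-fold was near that of genes at large. The median of the members was -0.50, against -0.14 for all genes.

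The higher members were the same in both genotypes, where 94.2% of all genes higher in WT were also higher in DEREG. Hk3, the myeloid hexokinase, had scaled signals of 0.662 and 0.628 in WT and DEREG sham, against 22.3 and 33.9 in WT and DEREG ischemia. Hk2 stood at 0.124, 0.134, 1.92 and 2.93 in the same order, and Slc16a3 at 0.889, 0.919, 7.93 and 11.3. In all 3 genes both stroke libraries lay far above both sham libraries, and the sham libraries were close together. In WT this came to 33.7-fold for Hk3, 15.5-fold for Hk2 and 8.93-fold for Slc16a3. The 2 probes of Hk3 gave 4.99 and 5.07.

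Hif1a was 1.88 and 1.84 in WT and DEREG sham and 5.76 and 9.54 in WT and DEREG ischemia, which is 3.06-fold higher after stroke in WT. Pfkfb3 was 2.45-fold higher (8.72 against 3.57) and Slc16a1 2.36-fold higher (3.61 against 1.53). Slc2a1 (1.44-fold), Pdk1 (1.68-fold) and Eno3 (1.43-fold) were higher by less than 2-fold. The 4 probes of Pdk1 gave 0.03 to 0.84. Ldha barely differed in WT, with scaled signals of 108 and 98.7; its difference of 0.13 turned to -0.04 when arrays were scaled by the median, which lowered all genes of this comparison from a median of -0.14 to -0.31.

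Among the lower members, Slc2a3, the neuronal glucose transporter, stood at 11.1 in WT sham and 2.92 in WT ischemia, and at 11.2 and 1.60 in the DEREG libraries. Eno2 stood at 112 and 109 in the sham libraries, 32.8 in WT ischemia and 15.6 in DEREG ischemia. Pgam2 stood at 3.40 and 4.45 in the sham libraries, 1.10 in WT ischemia and 0.512 in DEREG ischemia. For each of the 3 genes both stroke libraries were below both sham libraries, and DEREG ischemia was the lowest of all. Pfkp, the platelet-type phosphofructokinase, was 2.59-fold lower in WT and Pfkm, the muscle type, 2.27-fold lower. Pfkl, the liver type, was 1.42-fold lower. Of 7 skeletal muscle genes compared in WT, 3 were at least 2-fold higher after stroke and 1 lower, and Ckm and Mb were well above background in none of the tissue libraries.

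The 8 enzymes of the middle of the path were all below 0 in WT, from -0.86 to -0.29 with a median of -0.70, and none reached 2-fold. Aldoa stood at 600 and 576 in the WT and DEREG sham libraries and at 358 and 329 after stroke. Gapdh stood at 336 and 325 in sham and at 244 and 246 after stroke, and its 6 probes gave -0.72 to -0.46 in WT. Aldoc, the brain aldolase, was 1.59-fold lower and Ldhb 1.61-fold lower. Hk1, the main hexokinase of brain, was 53.1 in WT sham and 27.4 in WT ischemia, 1.94-fold lower. A second Hk1 probe, for another transcript, was dim (0.0418 and 0.0559) and went the other way, by 0.42.

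**Figure D3:**
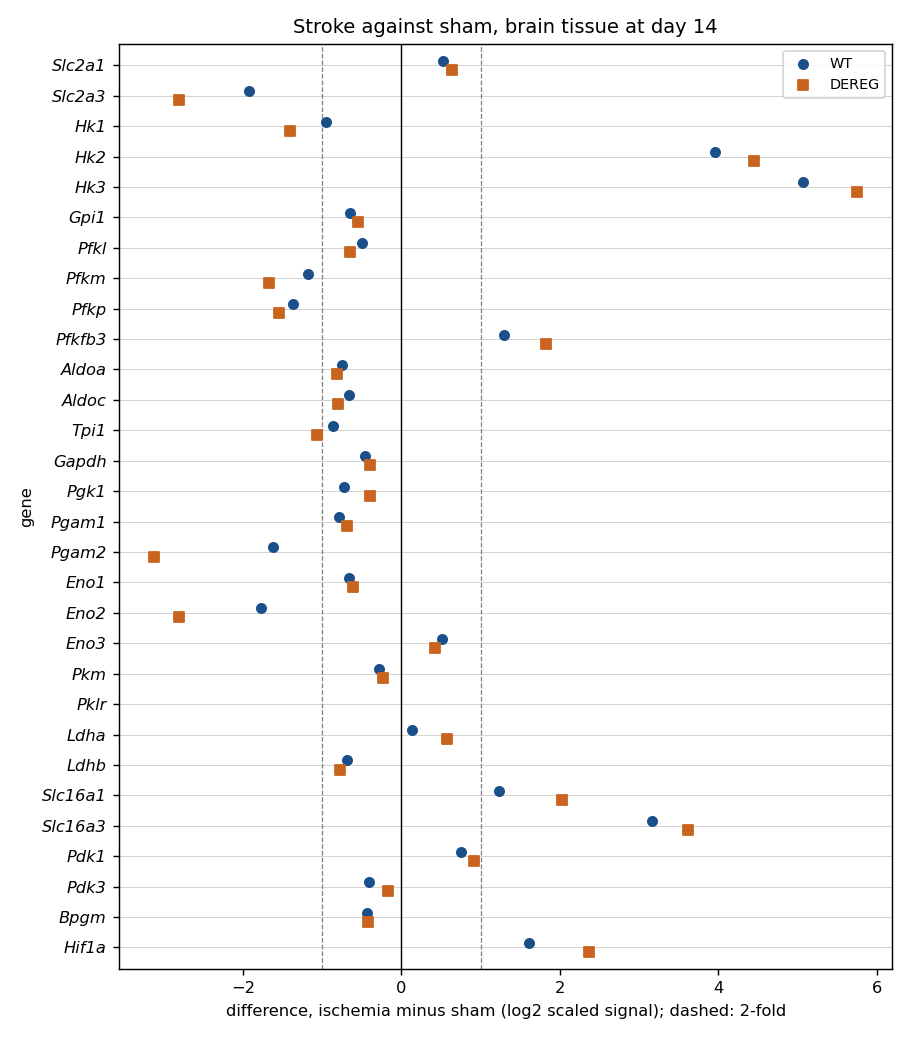
Difference between stroke and sham for each member in brain tissue at day 14 (x axis, log2 scaled signal, ischemia minus sham), for WT (blue circles) and DEREG (orange squares) mice, 1 array per group and so no error bars; dashed lines mark 2-fold. Hk3, Hk2 and Slc16a3 lie farthest to the right in both genotypes, and Pgam2, Eno2 and Slc2a3 farthest to the left.

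In DEREG mice the stroke comparison, which shares no array with that in WT, gave 6 members higher (20.7%, against 22.4% of all genes) and 7 lower (24.1%, against 22.1%). The 6 higher members were the same as in WT, and the 5 lower in WT were all among the 7 lower in DEREG. Hk1 (2.65-fold) and Tpi1 (2.10-fold) were the additional ones, Hk1 by -1.40 with the probe used and -0.31 with the median over its probes. Over all genes compared in both genotypes, 94.2% of those higher in WT and 94.1% of those lower were so in DEREG too. In the other direction, 78.9% and 77.1% of those counted in DEREG were counted in WT. All 29 members had the same sign in both genotypes, as had 91.2% of all 16722 genes compared in both. Of the members 20 (69.0%) lay farther from 0 in DEREG, near the 71.4% of all genes that did so. Hk3 reached 54.0-fold, Hk2 21.8-fold, Slc16a3 12.3-fold and Hif1a 5.18-fold. Pgam2 was 8.69-fold lower, Eno2 7.02-fold and Slc2a3 6.99-fold.

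The 2 stroke libraries were also compared with each other. No member was at least 2-fold higher in DEREG ischemia than in WT ischemia, where 2.36% of all genes were, and 2 members were at least 2-fold lower (6.90%, against 5.37% of all genes). These were Pgam2 (2.15-fold) and Eno2 (2.11-fold); with normexp only Eno2 remained past 2-fold. Hif1a was 1.66-fold higher in DEREG ischemia, Hk2 and Hk3 each 1.52-fold, Slc16a1 1.48-fold and Slc16a3 1.42-fold, and Slc2a3 was 1.82-fold lower. Between the sham libraries no member passed 2-fold, where 0.59% of all genes were higher in DEREG and 0.449% lower; the widest of these differences were those of Pgam2 (1.31-fold) and Slc2a1 (1.27-fold), both higher in DEREG. As a difference of differences over all 4 tissue arrays, Pgam2 gave -1.49 and Eno2 -1.04. These 2 were the members past 2-fold of 29 (6.9%), near the 6.12% of all genes. With the median as scaling point 1 member passed.

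**Figure D4:**
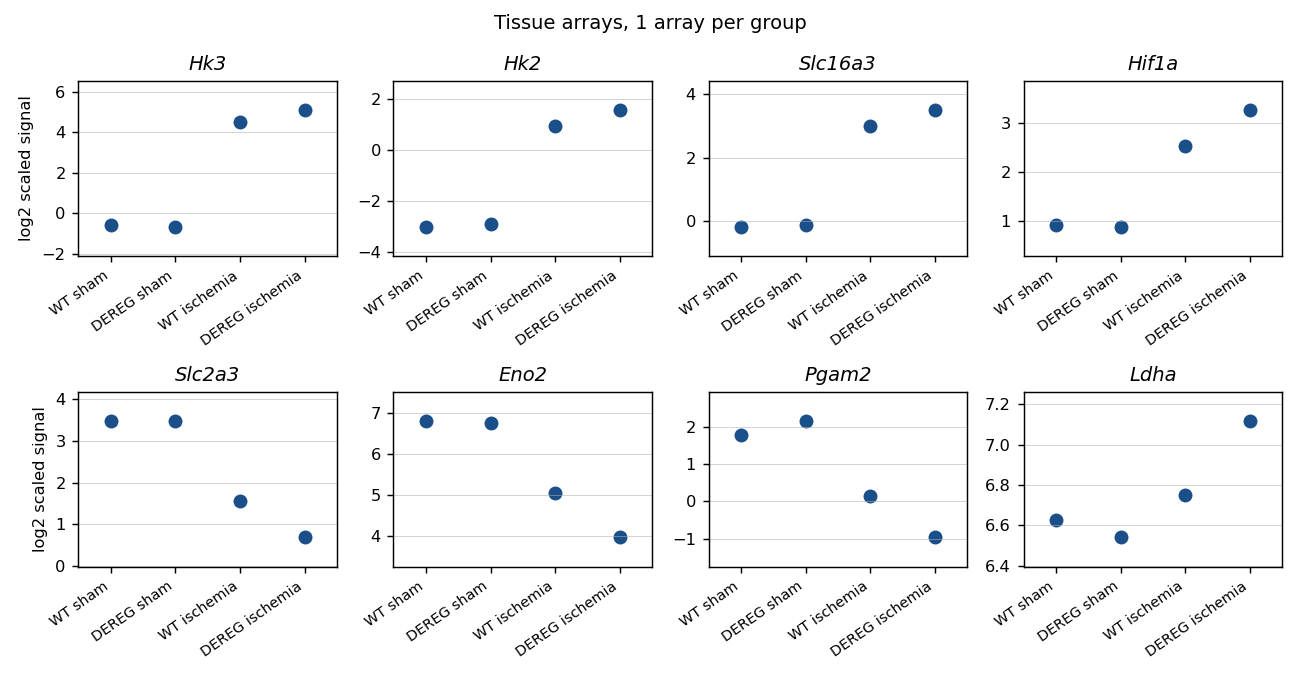
Scaled signal (y axis, log2, each panel with its own range) of 8 members in the 4 tissue libraries, 1 array per point. Hk3, Hk2, Slc16a3 and Hif1a are high in both stroke libraries, Slc2a3, Eno2 and Pgam2 are low in them, and Ldha spans a narrow range from 93.1 to 139 on the linear scale.

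Cell type markers moved strongly with stroke. All 12 neuron genes were at least 2-fold lower after stroke in both genotypes, with medians of -1.87 in WT and -2.97 in DEREG, and their summed scaled signal went from 556 and 521 in the WT and DEREG sham libraries to 157 and 71.4. Microglia genes were higher for 10 of 12 in WT (median 2.69) and 11 of 12 in DEREG (2.97), and their sum went from 172 and 152 to 789 and 907. Of 12 macrophage and monocyte genes 11 were higher in each genotype (medians 4.76 and 5.11), and all 12 cell division genes were higher (3.15 and 3.87). Astrocyte genes were higher for 3 of 12 in WT and 4 of 12 in DEREG, and oligodendrocyte genes differed little, with 1 of 10 lower in WT and none past 2-fold in DEREG. Neutrophil genes were higher for 6 of 8 in WT and 5 of 9 in DEREG, endothelial genes for 2 and 4 of 10, and erythroid genes for 5 of 7 and 5 of 6. Between the stroke libraries 7 of 12 neuron genes were at least 2-fold lower in DEREG, and 9 of 11 T cell genes at least 2-fold higher, with sums of 19.3 against 6.85. The share of these cell types in the differences of the glycolytic genes was not tested.

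Isoform shifts compare how far each of a pair of isoforms moved between the same libraries, so that the scaling of the arrays cancels. Of 16 pairs, 15 were measured in the tissue, and Pkm with Pklr was not. In WT stroke 9 of these 15 shifted at least 2-fold, in DEREG stroke 12, between the stroke libraries 6 and between the sham libraries none. For pairs of other genes no such share was computed, here or in the T cell comparisons, and pairs within a family can share a gene. Of all single genes 18.8% were higher and 18.4% lower after stroke in WT, and 22.4% and 22.1% in DEREG. The widest were in the hexokinases, where Hk1 moved by -6.03 against Hk3 and by -4.91 against Hk2 in WT. These values are for the Hk1 probe used (-0.95), and the second, dim probe gave 0.42. Slc2a1 moved by 2.45 against Slc2a3, Eno2 by -2.29 against Eno3, and Slc16a1 by -1.92 against Slc16a3. Aldoa and Aldoc kept step, with shifts of -0.08 in WT and -0.01 in DEREG.

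In the T cell comparisons 10 of 14 measured pairs shifted at least 2-fold between brain and spleen Treg and 7 of 13 between brain and spleen nonTreg. The Treg count came to 8 with normexp background correction and with the median over probes, and the nonTreg count to 5 with normexp. Hk1 moved by -3.54 against Hk2 in Treg. Pdk1 moved by -2.79 against Pdk3 in Treg and by -3.38 in nonTreg. In the tissue after stroke in WT, Pdk1 moved by 1.15 against Pdk3 with the probe used. The 4 probes of Pdk1 there gave differences of 0.03 to 0.84, so that shift depends on the probe. With the probes used, Ldha moved by 1.23 against Ldhb in Treg and 0.89 in nonTreg. The probes of Ldhb differed in sign (-0.22 to 0.31 in Treg and -0.36 to 0.48 in nonTreg), so these shifts depend on the probe. Slc16a1 moved by -1.11 against Slc16a3 in Treg and -1.88 in nonTreg. Pfkm moved by -1.40 and -1.31 against Pfkp. Between Treg and nonTreg 4 of 15 pairs shifted in the brain and 5 of 12 in the spleen.

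**Figure D5:**
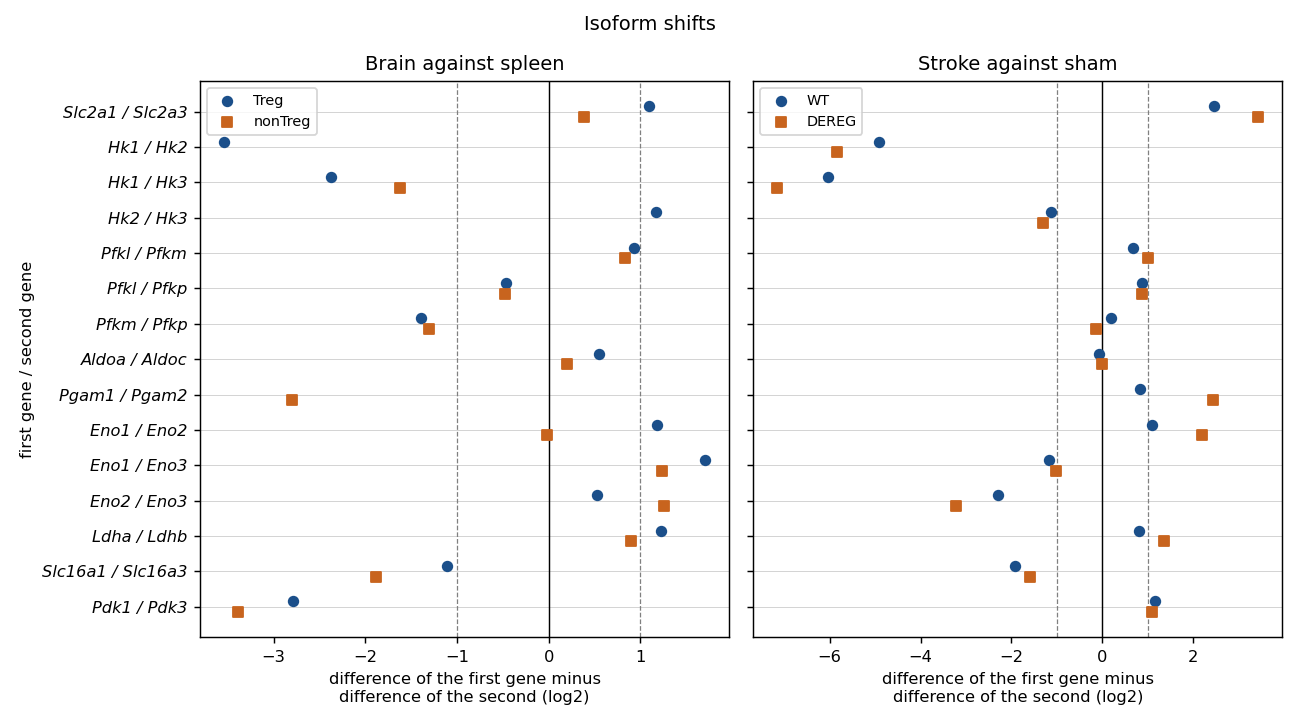
Isoform shifts: the log2 difference of the first gene of a pair minus that of the second (x axis), between brain and spleen (left; Treg circles, nonTreg squares) and between stroke and sham (right; WT circles, DEREG squares), 1 array per group. Dashed lines mark 2-fold, pairs with a gene not well above background have no point, and the Hk1 pairs lie farthest to the left on the right panel.

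The rest of sugar metabolism was followed through 7 gene lists. Their counts stand beside those of all genes: in brain against spleen Treg the shares past 2-fold were 17.2% higher and 11.7% lower (median 0.03), and after stroke in WT 18.8% and 18.4% (median -0.14). Among other glycolysis and glucose transport genes, 8 of 24 compared were at least 2-fold higher and 3 lower in brain than in spleen Treg, with a median of 0.14. Slc2a5, a fructose transporter and a known microglial gene, was at least 54.8-fold higher, the transporter Slc2a6 was 5.52-fold higher, and Emb, a partner that carries monocarboxylate transporters to the membrane, was 3.85-fold higher. Tigar, a phosphatase known to slow glycolysis, was 2.15-fold lower. Slc16a7, which encodes the monocarboxylate transporter MCT2 and was another of the 3 lower genes, turned from -1.53 to 1.81 with the median over its probes. After stroke in WT 9 of 33 were higher and 6 lower: Slc2a4, the insulin-responsive transporter, was 4.80-fold higher, while Slc2a13, the proton myo-inositol transporter, and Pgm2l1, which makes glucose bisphosphate, were 5.83-fold and 4.73-fold lower.

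Genes of pyruvate entry into mitochondria had a median of -0.74 after stroke in WT, against -0.14 for all genes. On that list 4 of 17 were lower and 1 higher, where 18.4% and 18.8% of all genes were. Pdp1, the phosphatase that reactivates pyruvate dehydrogenase, was 4.24-fold lower, and Dlat and Pdhx, subunits of the complex, 2.80-fold and 2.27-fold lower. In brain against spleen Treg 2 of 15 were higher and 1 lower, with Mpc1, a subunit of the mitochondrial pyruvate carrier, 2.20-fold higher and Pdk2 2.82-fold lower. Pentose phosphate genes had a median of 0.58 after stroke, with 3 of 10 higher and 1 lower. H6pd was 4.84-fold, Pgd 3.67-fold and Pgls 2.50-fold higher, all enzymes of the oxidative branch, and Prps1 2.33-fold lower. In brain Treg 1 of 11 was higher (Tktl1) and none lower.

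Of the glycogen genes, Pygl, the liver form of glycogen phosphorylase, was 14.4-fold higher in brain than in spleen Treg and 6.73-fold higher after stroke in WT. Its scaled signals were 0.202 in brain Treg and 0.0140 in spleen Treg. The spleen Treg signal lay close to the lowest signal well above background on its array, so the size of the 14.4-fold difference is uncertain. In all, 1 of 15 glycogen genes was higher and 2 lower in brain Treg, and 2 of 17 were higher and 1 lower after stroke. Among 10 oxygen sensing genes and HIF partners, Epas1, which encodes HIF2A, was 10.8-fold higher in brain Treg and Egln3, a prolyl hydroxylase, 5.47-fold, while Hif3a was 3.60-fold lower; 3 of the 10 were higher and 1 lower. After stroke in WT 1 of 10 was higher (Egln3) and 1 lower (Arnt2). Other HIF target genes were higher in brain Treg for 10 of 23 and lower for none, with a median of 0.78, and included Vegfa (at least 9.62-fold). After stroke in WT 8 of 23 HIF target genes were higher and 5 lower, where 18.8% and 18.4% of all genes were. The higher ones were led by Hmox1 (30.1-fold) and Angptl4 (14.3-fold), and Car12, Ankrd37 and Bnip3 were lower. Among the metabolic regulators 2 of 13 were higher and 2 lower in brain Treg, and Irf4, a T cell transcription factor, was 5.33-fold higher. Mlxipl, a glucose-responsive transcription factor and 1 of the 2 lower genes, turned from -1.19 to 3.06 with the median over its probes. After stroke 3 of 16 were higher and 4 lower: Txnip, which restrains glucose uptake, was 8.02-fold and Myc 3.82-fold higher, and the related Mycn was 4.81-fold lower.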

How the data were processed

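RNA of 8 mouse samples was hybridised to 8 one-colour (Cy3) Agilent arrays on 1 slide with 1 scan time, so no batch could be split. Labelling used a low-input amplification kit, per the labels' protocols. Per the submitters' processing notes, spots were read with Agilent Feature Extraction 10.7.1.1; the file headers name build mm9, while gene names and promoters come from RefSeq tables of GRCm38.p6. Per the file headers, the deposited spot intensity that was used is background-subtracted, with no normalization between arrays. The signal in the series table deposited by the authors was a constant multiple of that intensity for 99.89% to 99.97% of probes per array (tolerance 0.1%), and served as an alternative.

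Probes were named through their RefSeq accession: 32994 of 56605 matched 1 symbol and 23611 matched none. Spots of a probe were averaged without outlier spots (69 to 109 per array); repeated spots of a probe had a median SD of 0.039 to 0.043 (log2), which is technical error, and none was saturated. Log2 signals were scaled to the array's 75th percentile, over all probes for tissue and, for T cells, over those well above background on all 4. The probe with the highest mean over a set stood for its gene. With 1 side dim (not well above background), a difference is a bound against the higher of the dim value and the array's lowest signal well above background. No additive model over a set's 4 arrays was run. The members, the 7 pathway lists and the 11 marker lists were chosen with earlier results of these data known. All members are reported; list genes are named where they are among the 3 highest or lowest of their list in brain against spleen Treg or WT stroke against sham. Some genes named by this rule are left out of the text.

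There were 8 alternatives: normexp background correction (limma 3.58.1 in R 4.3.3, offset 50, on median spot and background signals, since mean signals are not in the files used here), quantile normalization, the percentile over the other set's choice of probes, scaling to the median, only genes above background on both arrays, dim probes unfiltered, the median over the probes of a gene, and the authors' table. The counting was run on simulated pairs of arrays with spot noise only and planted changes of 3-fold and 8-fold. All planted changes were counted (100%), which checks the code only. Variation between libraries was not simulated. Other computations used Python 3.11.15 with numpy 2.4.6 and pandas 2.3.3.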

Additional observations from a re-analysis of the deposited data

Results flagged for a closer look

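Eno2, the neuronal enolase, moved in opposite directions between spleen and brain in the T cell types: its brain minus spleen difference was -0.63 in Treg and 0.46 in nonTreg (log2 scaled signal), a difference of differences of -1.09. With 1 array per group this difference was not tested. All 4 signals were well above background but dim, and with normexp background correction the nonTreg difference was -0.08.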

How the results depend on the processing

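All 11 counted members of WT stroke against sham kept their call under each of the 8 alternatives, as did 12 of 13 in DEREG stroke (Hk1 was lost with the median over probes), 12 of 15 in brain against spleen Treg, 7 of 10 in nonTreg, 3 of 4 in brain Treg against nonTreg, 1 of 5 in spleen and 1 of 2 between the stroke libraries. Hk2 in spleen nonTreg and Pgam2 in spleen Treg were not well above background, so their differences from the brain are bounds. With normexp background correction the members past 2-fold went from 5 to 1 in spleen Treg against nonTreg and from 2 to 1 in DEREG against WT ischemia, isoform shifts from 4 to 2 in brain and from 5 to 1 in spleen Treg against nonTreg, and the T cell differences of differences from 1 to 0. Eno2 against Eno3 in the spleen turned from 1.23 to -0.028. Without the filter on dim probes, DEREG against WT sham gained 1 member and 1 isoform pair and the T cell differences of differences came to 2. The median over probes also gave 2 there, and turned Mlxipl from -1.19 to 3.06 in brain against spleen Treg and from -1.25 to 2.23 in nonTreg, and Slc16a7 from -1.53 to 1.81 in Treg. The median as scaling point left 1 of 2 tissue differences of differences. In WT stroke the lower members came to 7 with the median as scaling point and 6 with the median over probes, against 5 in the main setting. Over all genes, normexp gave 1239 higher and 907 lower in brain against spleen Treg, where the main setting gave 2372 and 1619, and 1219 and 890 in nonTreg, against 2389 and 1618. No paired analysis was possible because each group has 1 array. The cause of these changes was not tested.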

Other observations

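The pathway lists in the comparisons not described above gave the following values. Over all genes 17.8% were at least 2-fold higher and 12.1% lower in brain than in spleen nonTreg, 4.63% and 2.86% in brain Treg than in brain nonTreg, and 22.4% and 22.1% after stroke in DEREG mice. In nonTreg, brain exceeded spleen at least 2-fold for 6 of 21 other HIF target genes and lay below it for 1 (median 0.57), and 5 of 24 other glycolysis and glucose transport genes were higher and 4 lower (median 0.12). Between brain Treg and brain nonTreg, 3 of 23 HIF target genes were higher in Treg and none lower (median 0.40). In DEREG stroke 5 of 10 pentose phosphate genes were at least 2-fold higher and 1 lower (median 0.94), against 3 and 1 in WT. Pyruvate entry genes had a median of -0.64 in DEREG stroke, with 4 of 17 lower and 1 higher, as in WT. Of 23 HIF target genes, 9 were higher and 5 lower in DEREG stroke, against 8 and 5 in WT.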
